A study of Mus musculus with 6 samples.

Results

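Expression of 31 genes of cholesterol synthesis and transport was examined in B16F10, a pigmented mouse melanoma line. They were the rows of the series table, out of 51912, whose names were on a list of 20 enzymes, 5 sterol-sensing genes and 6 genes of transport, uptake control and efflux. All 31 were found. RNA was sequenced from 3 libraries labelled A10KO (genotype ANXA10-/-, replicates 1, 13 and 14) and from 3 libraries labelled WT (wild type, replicates 1, 2 and 3), all of the same cell line with no treatment named. How the knockout was made, and whether a replicate number stands for a clone, a culture or a repeated preparation, is not given in the sources used here, so a p-value measures only the spread between these libraries. The deleted gene encodes annexin A10, of a family of proteins that bind membranes with calcium. The list leaves out some genes of the pathway, which are not analysed here.

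Cells make cholesterol from acetyl-CoA. The mevalonate steps build isoprenoid units, squalene synthase and the next enzymes join and close them into lanosterol, and a series of reductases, demethylating enzymes and isomerases turns lanosterol into cholesterol. When sterol is scarce, the escort protein Scap carries the membrane-bound SREBP transcription factors from the endoplasmic reticulum to the Golgi for cleavage, and the released factors switch on the genes of synthesis and uptake. When sterol is plentiful, Insig proteins hold Scap back, while oxysterols activate the liver X receptors, which are known to switch on the efflux pump gene Abca1 and the ubiquitin ligase gene Mylip.

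The values are TPM, a level per transcript length and per library total, so they can be compared between genes. The total number of reads cannot be recovered from TPM, and sequencing depth is unknown. Each library had 11889 to 12236 genes at 1 TPM or more. Anxa10 was listed at 0 TPM in all 6 libraries, WT included, and so gave no check of the labels. The 8 melanocyte markers, among them Mlana and Dct, were all above 10 TPM in every library. Of 6 leukocyte markers 2 (Tyrobp and Cd3e) were at 0 in every library, and their summed level was 0.91 to 1.51 TPM in A10KO and 2.86 to 5.52 TPM in WT, most of it Cd68. The part of these markers in the results was not tested. The sums were 0.83 to 3.13 TPM in A10KO and 2.98 to 3.44 TPM in WT for 5 fibroblast markers, and at most 0.57 TPM for 5 epithelial and 0.62 TPM for 4 endothelial markers. The 4 hepatocyte markers summed to 9.96 to 12.6 TPM in A10KO and 10.4 to 12.3 TPM in WT. Mitochondrially encoded transcripts are often read as a sign of RNA quality. They made up 7.93% of all TPM in A10KO replicate 1, 14.7% in replicate 13 and 7.37% in replicate 14. In WT they made up 6.32% to 6.56%. Much of this was mt-Atp8, at 74021 TPM in A10KO replicate 13, whereas mt-Atp6 was listed at 0 in every library. How far this share reflects RNA quality was not tested.

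The cholesterol enzymes were active genes in this line, and their levels split the A10KO libraries. Fdps had the highest WT level of the 31 genes, at 197 ± 4.51 TPM (SD, n = 3), followed by Dhcr7 at 86.6 ± 1.76 TPM. Of the 31 genes, 18 averaged at least 30 TPM in WT. Summed over the 20 enzymes, the level was 704, 542 and 1006 TPM in A10KO replicates 1, 13 and 14, against 946, 983 and 900 TPM in WT replicates 1, 2 and 3. A10KO replicates 1 and 13 were thus below every WT library, and A10KO replicate 14 was above every one. The groups overlapped in this sum. In these bulk samples a smaller number of cells with a transcript and less of it per cell cannot be told apart.

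**Figure D1:**
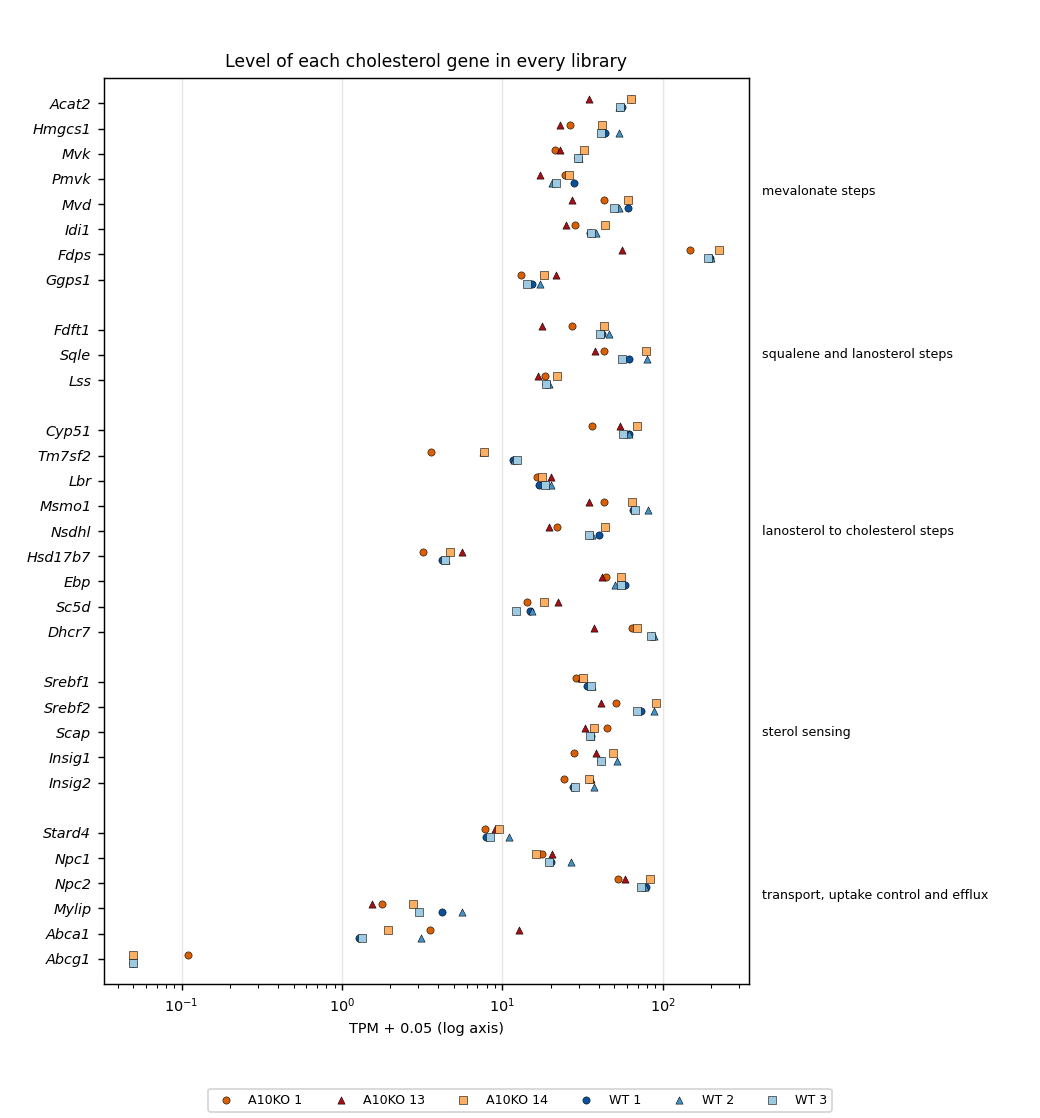
Level of each of the 31 genes in every library, as TPM + 0.05 on a log axis, with genes down the page in groups by role and 1 point per library (A10KO points above, WT points below). For most enzymes the A10KO 1 and A10KO 13 points lie to the left of the WT points and the A10KO 14 points among or to the right of them; Fdps in A10KO 13 is at 55.4 TPM and Abca1 in A10KO 13 at 12.7 TPM, to the right of its WT points.

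The comparison of A10KO with WT was a limma fit with a mean-variance trend on log2(TPM + 1) over 12068 genes, those that reached 1 TPM in 3 or more libraries. Of the 31 genes, 30 passed this filter, and all 30 had at least 1 TPM in every library. Abcg1, a sterol efflux transporter of the ABC family, was at 0.06 TPM in A10KO replicate 1 and listed at 0 in the other A10KO libraries and in all WT libraries, and was not tested. None of the 30 passed a Benjamini-Hochberg adjusted p of 0.05 in limma (lowest 0.426), where 0.0414% of all tested genes did, 5 genes in all. The count over all genes rested on single libraries. It came to 20 genes when A10KO replicate 13 was left out, 9 when A10KO replicate 1 was, 2 when WT replicate 3 was and 1 when either of the other WT libraries was, with 0 members among them each time.

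At an unadjusted limma p under 0.05, 5 of the 30 were lower in A10KO and 0 were higher, against 6.27% and 2.56% of all tested genes. These were Tm7sf2, Mylip, Dhcr7, Msmo1 and Hmgcs1. The A10KO and WT values did not overlap for 5 genes that were lower in A10KO, where 11.5% of all tested genes did the same, and for 0 that were higher, against 5.61%. These 5 were Tm7sf2, Mylip, Dhcr7, Msmo1 and Srebf1. Without A10KO replicate 14, 19 of the 30 lay below WT with no overlap, against 21.2% of all tested genes, and 1, Abca1, lay above, against 11.2%. Leaving out A10KO replicate 1 put 5 members below WT, against 17.5% of all tested genes, and 3 above, against 13.4%. Leaving out A10KO replicate 13 put 6 below, against 21.0%, and 2 above, against 9.93%. Leaving out WT replicate 2 put 5 below, against 14.7%, and 1 above, against 10.7%. The log2 change, A10KO minus WT of log2(TPM + 1), a scale on which changes of weakly expressed genes come out too small, was below 0 for 24 of 30 members and for 56.5% of all tested genes. Its median was -0.22 over the members and -0.04 over all tested genes. Leaving out A10KO replicate 14 gave a members' median of -0.42, leaving out replicate 1 gave -0.16 and leaving out replicate 13 gave -0.14. It was -0.03 with array quality weights.

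**Figure D2:**
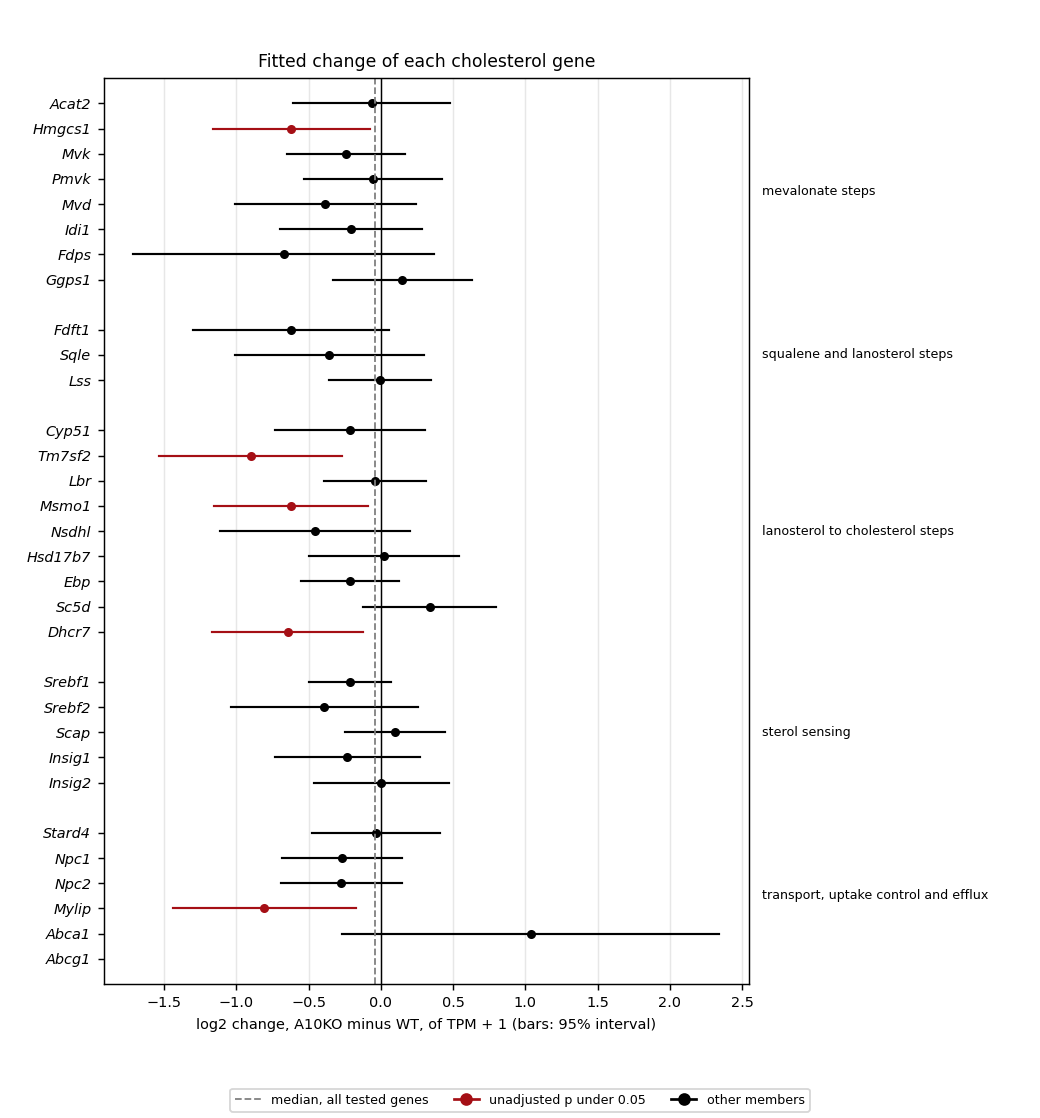
Log2 change of each tested gene, A10KO minus WT, from the limma fit on log2(TPM + 1), with genes down the page by role, points for the estimate and bars for its 95% interval. The 5 genes at an unadjusted p under 0.05 are in red, all left of 0, and the dashed line marks the median of all tested genes at -0.04.

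Each A10KO library was then set against WT on its own. A10KO replicate 1 lay below all 3 WT libraries for 25 of 30 members, against 47.4% of all tested genes, and above all 3 for 3, against 23.4%. A10KO replicate 13 lay below for 22, against 36.7%, and above for 4, against 38.3%. A10KO replicate 14 went the other way, below for 6 members, against 34.5%, and above for 13, against 27.3%. Both A10KO replicates 1 and 13 were below every WT library for 19 of 30 members, whereas 21.0% of all tested genes did so.

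Median log2 differences from the WT mean over the 30 members were -0.35, -0.39 and 0.11 in A10KO replicates 1, 13 and 14. Over all tested genes they were -0.12, 0.02 and -0.03. For the 20 enzymes alone the medians were -0.38, -0.57 and 0.16. The 3 WT libraries, each against the mean of the other WT libraries, had member medians of -0.04, 0.08 and -0.12. The SD of log2(TPM + 1) was larger in A10KO than in WT for all 20 enzymes and for 27 of 30 members, as it was for 78.2% of all tested genes.

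The mitochondrial share was highest in A10KO replicate 13, the library with the lowest enzyme levels. With mitochondrially encoded transcripts removed and the rest rescaled, the 20 enzymes were below all WT libraries 16, 15 and 3 times in A10KO replicates 1, 13 and 14, against 45.2%, 28.4% and 32.8% of all tested genes. As deposited these counts were 17, 16 and 3, against 47.4%, 36.7% and 34.5%. With these transcripts removed, the 30 tested members were below 24, 19 and 6 times and above 3, 6 and 15 times. Of all tested genes, 25.2%, 48.3% and 29.1% were then above all WT libraries. As deposited the 30 members were below 25, 22 and 6 times and above 3, 4 and 13 times.

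**Figure D3:**
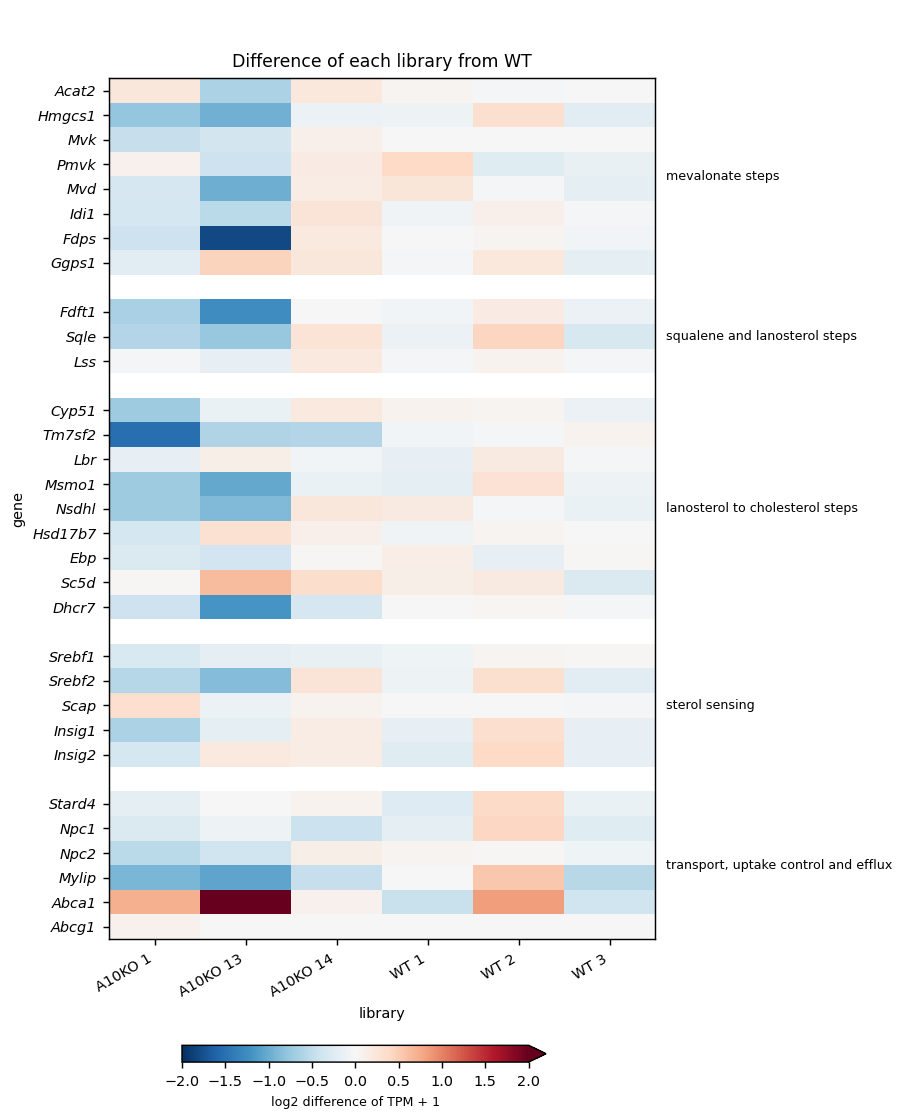
Log2 difference of each library, on the log2(TPM + 1) scale, with genes down the page by role and libraries across. Each A10KO library is set against the WT mean and each WT library against the mean of the other WT libraries; blue is lower and red higher, and the scale ends at 2, which Abca1 in A10KO 13 passes at 2.32. The A10KO 1 and A10KO 13 columns are mostly blue in the enzyme rows and the A10KO 14 column is mostly pale red.

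Promoters of these genes are known to carry binding sites for SREBP beside those for the cofactors NF-Y and Sp1. RefSeq promoters on GRCm38.p6, from 250 bases before to 50 after a start site, were in the table for 25 of the 31 members (33 promoters). CCAAT, the NF-Y box, was found on either strand in 23 of the 33, against 37.4% of all 32851 promoters and 38.4% of those of tested genes. GGGCGG, the Sp1 box, was in 27 of the 33, against 35.7% of all promoters and 63.7% of those of tested genes. TCACNCCAC, from the sterol regulatory element, was in 1, that of Hmgcs1, against 1.24% of all promoters. Other forms of this element were not searched for, so a promoter without this match may still hold one. Abcg1, Fdft1, Fdps, Npc1, Sqle and Stard4 had no promoter entry. The motifs did not overlap one another in the promoters shown. A match is a run of letters and not a shown binding site. The promoter of Hmgcs1 (chr13:119690101-119690400, plus strand) is printed for its sterol element, whose first base lies 137 bases upstream of the start. Those of Msmo1 (chr8:64733529-64733828, minus strand) and Tm7sf2 (chr19:6067801-6068100, minus strand), genes lower in all 3 A10KO libraries, and of Abca1 (chr4:53159846-53160145, minus strand), whose log2 change was the largest above 0 although its groups overlap, were chosen after their values were seen. Capitals mark TCACNCCAC and CCAAT, and CCAAT reads ATTGG where it lies on the opposite strand. Hmgcs1 has 4 of these boxes, Msmo1 3, Tm7sf2 1 and Abca1 0, and Abca1 has 2 copies of GGGCGG, which is left in lower case.
Hmgcs1: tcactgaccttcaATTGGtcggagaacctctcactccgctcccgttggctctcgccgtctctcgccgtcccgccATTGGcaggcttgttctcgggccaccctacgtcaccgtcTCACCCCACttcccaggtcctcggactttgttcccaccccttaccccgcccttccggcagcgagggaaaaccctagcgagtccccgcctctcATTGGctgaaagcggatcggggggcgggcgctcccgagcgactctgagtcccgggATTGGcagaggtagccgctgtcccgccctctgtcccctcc
Msmo1: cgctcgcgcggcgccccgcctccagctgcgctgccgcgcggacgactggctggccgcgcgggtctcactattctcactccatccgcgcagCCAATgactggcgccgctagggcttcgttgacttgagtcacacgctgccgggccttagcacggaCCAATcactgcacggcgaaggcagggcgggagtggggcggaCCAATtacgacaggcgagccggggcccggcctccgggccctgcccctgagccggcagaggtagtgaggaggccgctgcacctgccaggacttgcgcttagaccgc
Tm7sf2: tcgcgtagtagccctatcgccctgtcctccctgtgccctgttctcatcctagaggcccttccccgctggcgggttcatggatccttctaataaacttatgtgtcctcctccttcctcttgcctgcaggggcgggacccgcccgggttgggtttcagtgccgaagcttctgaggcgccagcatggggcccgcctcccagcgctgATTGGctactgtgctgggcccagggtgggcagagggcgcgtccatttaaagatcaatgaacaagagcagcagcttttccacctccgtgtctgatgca
Abca1: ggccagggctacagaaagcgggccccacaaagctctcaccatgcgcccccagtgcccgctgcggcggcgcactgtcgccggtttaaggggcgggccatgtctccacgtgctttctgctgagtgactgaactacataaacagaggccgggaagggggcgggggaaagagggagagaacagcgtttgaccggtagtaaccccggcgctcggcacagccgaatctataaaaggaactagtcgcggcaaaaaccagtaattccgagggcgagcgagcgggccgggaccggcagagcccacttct

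Of the mevalonate steps, Hmgcs1 was the gene with an unadjusted p under 0.05, and Fdps the gene with the widest spread. Hmgcs1 encodes the cytosolic synthase that makes HMG-CoA and lies on chromosome 13 (GRCm38, 119690379 to 119708260, ENSMUSG00000093930). It had 26.5, 23.0 and 42.1 TPM in A10KO replicates 1, 13 and 14, against 43.8, 53.3 and 41.3 TPM in WT replicates 1, 2 and 3. A10KO replicates 1 and 13 were below every WT library and A10KO replicate 14 lay within the WT range. The log2 change was -0.62 (SE 0.23, limma unadjusted p = 0.030, adjusted p = 0.517). Of its exon length 12.1% overlaps the antisense gene Gm48342, which was not analysed here.

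Fdps, farnesyl diphosphate synthase, supplies both the sterol and the prenylation branches and lies on chromosome 3 (89093588 to 89101959). Its level was 148, 55.4 and 226 TPM in the A10KO libraries, against 197, 201 and 192 TPM in WT. The WT libraries lay within 10 TPM of each other, whereas A10KO replicate 13 was at 0.282 of the WT mean and A10KO replicate 14 at 1.15. With mitochondrial transcripts removed these ratios were 0.309 and 1.16. The log2 change was -0.67 (SE 0.45, limma adjusted p = 0.713), within the spread between libraries. It was -0.11 without A10KO replicate 13 and -1.11 without A10KO replicate 14. The near-identical Fdps copies Gm3571, Gm5873, Gm8163 and Gm7979 were each listed at no more than 0.17 TPM. Gm43738 overlaps the exons of Fdps itself on the same strand, over 1124 bases or 26.7% of their length. It was listed at no more than 0.33 TPM.

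The other mevalonate enzymes followed the same order of libraries in part. Idi1, isopentenyl diphosphate isomerase, stood at 28.5, 24.9 and 44.0 TPM in A10KO, against 35.2, 38.3 and 36.0 TPM in WT (log2 change -0.21, limma adjusted p = 0.798). Mvd, which decarboxylates mevalonate diphosphate, had 43.0, 27.3 and 60.8 TPM in A10KO and 61.1, 53.4 and 49.8 TPM in WT. Both had their lowest value in A10KO replicate 13 and overlapped between the groups. Mvk, mevalonate kinase, averaged 25.4 ± 5.88 TPM in A10KO and 29.7 ± 0.147 TPM in WT (SD, n = 3 each), and its 3 WT values were nearly the same.

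Acat2, the cytosolic thiolase that starts the pathway, and Pmvk, phosphomevalonate kinase, were low in A10KO replicate 13 alone. Acat2 had 63.6, 34.7 and 63.2 TPM in A10KO, against 55.7, 53.4 and 54.0 TPM in WT. Pmvk had 24.6, 17.0 and 26.0 TPM in A10KO, against 27.9, 20.5 and 21.5 TPM in WT. Acat3, a near-identical paralog of Acat2, was listed at no more than 0.91 TPM. Ggps1, which makes geranylgeranyl diphosphate for protein prenylation and not for sterols, differed in pattern. It was highest in A10KO replicate 13, with 13.1, 21.6 and 18.3 TPM in A10KO, against 15.2, 17.2 and 14.2 TPM in WT (log2 change 0.15, limma adjusted p = 0.852). Of its exon length 5.44% overlaps Arid4b on the opposite strand, and the strand setting is not given. Arid4b had 4.66, 10.2 and 4.26 TPM in A10KO, against 4.01, 6.13 and 4.43 TPM in WT. The part of this overlap was not tested.

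At the squalene and lanosterol steps, Fdft1 and Sqle were low in A10KO replicates 1 and 13. Fdft1, squalene synthase (chromosome 14, 63145150 to 63179578), stood at 27.1, 17.6 and 43.3 TPM in A10KO, against 41.8, 46.5 and 40.8 TPM in WT. Its log2 change was -0.62 (SE 0.29, limma unadjusted p = 0.066, adjusted p = 0.583), and it was -0.32 without A10KO replicate 13 and -0.94 without A10KO replicate 14. Part of its exons, 774 bases or 18.3% of their length, overlaps Ctsb on the opposite strand, and the strand setting of the counting is not given, so reads of both genes may not be told apart. Ctsb, a lysosomal protease gene, had 126, 128 and 143 TPM in A10KO, against 211, 250 and 249 TPM in WT. A10KO replicate 14 was at the WT level for Fdft1 and below it for Ctsb.

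Sqle, squalene epoxidase, a known control point of the pathway, had 43.0, 37.9 and 79.0 TPM in A10KO, against 61.5, 79.7 and 56.0 TPM in WT. The same split of the A10KO libraries was seen, with A10KO replicate 14 just below the highest WT library (log2 change -0.36, SE 0.28, limma adjusted p = 0.754). The sign turned to 0.064 with array quality weights. Lss, lanosterol synthase, varied little, at 19.0 ± 2.63 TPM in A10KO and 19.0 ± 0.540 TPM in WT, with a log2 change of -0.0049 and a 95% interval of -0.36 to 0.35.

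Among the 9 genes from lanosterol to cholesterol, Tm7sf2, Dhcr7 and Msmo1 were lower in all 3 A10KO libraries than in any WT library. Of all tested genes, 11.5% were lower in this way. Tm7sf2 encodes a sterol reductase of the endoplasmic reticulum (chromosome 19, 6062821 to 6068373). It had 3.55, 7.53 and 7.60 TPM in A10KO, against 11.7, 11.9 and 12.4 TPM in WT. The lowest value was in A10KO replicate 1, and the groups were well apart. The log2 change was -0.90 (SE 0.27, 95% interval -1.53 to -0.27, limma unadjusted p = 0.011, adjusted p = 0.426), and it was -0.60 without A10KO replicate 1. Vps51, a neighbour that shares 532 bases of exon with Tm7sf2 on the same strand, had 31.8, 26.7 and 42.1 TPM in A10KO and 32.6, 31.0 and 37.5 TPM in WT. Lbr, the lamin B receptor, which catalyses the same reduction as Tm7sf2, stood at 18.01 ± 1.91 TPM in A10KO and 18.5 ± 1.61 TPM in WT (log2 change -0.04, 95% interval -0.39 to 0.31).

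Dhcr7 encodes a final reductase of the pathway (chromosome 7, 143823145 to 143848410). Its level was 64.4, 37.5 and 68.8 TPM in A10KO, against 86.4, 88.5 and 85.1 TPM in WT. WT values were close together and every A10KO value was below them, A10KO replicate 13 by most. The log2 change was -0.65 (SE 0.22, 95% interval -1.17 to -0.12, limma unadjusted p = 0.022, adjusted p = 0.490), and it was -0.38 without A10KO replicate 13. Its transcripts share stretches of 201 to 226 bases with 15 other genes, of which Rpia, at 10.2 to 17.0 TPM over the 6 libraries, and Dhtkd1, at 2.30 to 7.04 TPM, were the ones above 2 TPM.

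Msmo1 encodes the methylsterol monooxygenase, which takes part in removal of methyl groups (chromosome 8, 64718139 to 64733792). It had 43.2, 34.5 and 64.5 TPM in A10KO, against 65.2, 81.5 and 67.7 TPM in WT. A10KO replicate 14 was below the lowest WT library by less than 1 TPM. The log2 change was -0.62 (SE 0.23, limma unadjusted p = 0.028, adjusted p = 0.504). Its transcripts share stretches of 200 to 202 bases with 6 other genes, among them Zmynd8, at 34.9 to 55.3 TPM over the 6 libraries, and Slc37a1, at 7.91 to 19.3 TPM. Nsdhl, the dehydrogenase that acts after Msmo1, had 22.04, 19.5 and 43.5 TPM in A10KO, against 40.1, 36.1 and 34.7 TPM in WT. Its groups overlapped because A10KO replicate 14 was above every WT library (limma adjusted p = 0.688).

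The other 4 genes of these steps differed in direction. Cyp51, lanosterol demethylase, had 36.3, 54.4 and 69.0 TPM in A10KO, against 61.8, 61.4 and 56.5 TPM in WT, and was lowest in A10KO replicate 1. Of its exon length 3.76% overlaps Akap9 on the opposite strand. Akap9 had 10.97, 21.98 and 15.05 TPM in A10KO, against 15.31, 14.73 and 15.74 TPM in WT. Ebp, a sterol isomerase, averaged 47.0 ± 7.16 TPM in A10KO and 54.4 ± 3.78 TPM in WT. Hsd17b7, a ketosteroid reductase with the lowest level of the 20 enzymes in WT, had 3.17, 5.54 and 4.66 TPM in A10KO and 4.14, 4.42 and 4.32 TPM in WT. Sc5d, a desaturase that acts just before Dhcr7, had 14.3, 22.3 and 18.2 TPM in A10KO, against 14.8, 15.3 and 12.1 TPM in WT. Its mean was higher in A10KO, but A10KO replicate 1 lay within the WT range (log2 change 0.34, SE 0.20, limma adjusted p = 0.666). In A10KO replicate 13, where Dhcr7 was lowest, Sc5d was highest.

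**Figure D4:**
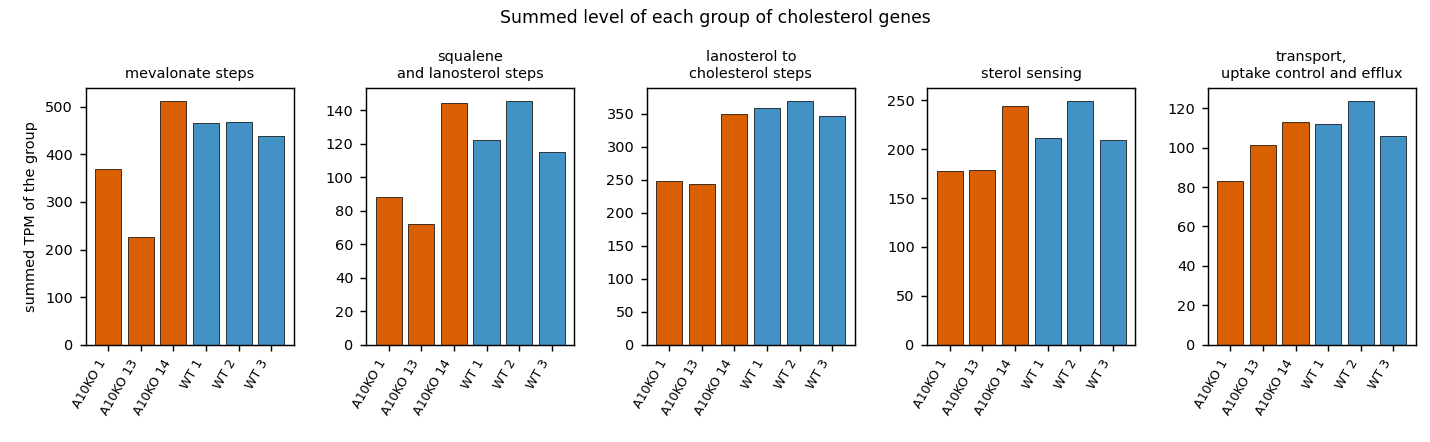
Summed TPM of each group of genes (vertical axes from 0, with a scale of their own per panel) in each library, A10KO in orange and WT in blue. In all 5 groups the A10KO 1 and A10KO 13 bars are lower than every WT bar, whereas the A10KO 14 bars are among or above them; in the mevalonate group the bars of A10KO 1, 13 and 14 stand at 368, 227 and 513 TPM.

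Of the sterol-sensing genes, Srebf2 followed the enzymes and Srebf1 was slightly lower in every A10KO library. Srebf2 encodes SREBP-2, the main regulator of cholesterol genes (chromosome 15, 82147181 to 82205379). It had 51.3, 41.3 and 91.0 TPM in A10KO, against 72.8, 88.3 and 68.9 TPM in WT. A10KO replicates 1 and 13 were below WT and A10KO replicate 14 above it (log2 change -0.39, SE 0.28, limma adjusted p = 0.735). Srebf1, whose products favour fatty acid genes (chromosome 11, 60199089 to 60222581), had 28.6, 30.8 and 31.7 TPM in A10KO, against 33.9, 36.4 and 35.8 TPM in WT. The groups did not overlap but lay close together (log2 change -0.21, SE 0.12, limma unadjusted p = 0.116, adjusted p = 0.659).

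Insig1, itself a known SREBP target, had 28.1, 38.5 and 49.1 TPM in A10KO, against 41.2, 51.9 and 41.0 TPM in WT. It was lowest in A10KO replicate 1 and below WT in A10KO replicate 13 by less than 3 TPM (log2 change -0.23, SE 0.21, limma adjusted p = 0.780). Insig2 had 24.1, 35.7 and 34.5 TPM in A10KO, against 27.6, 37.5 and 28.6 TPM in WT, with a log2 change of 0.0034 and a 95% interval of -0.46 to 0.47. Scap, the SREBP escort, had 45.1, 32.6 and 37.4 TPM in A10KO and 35.7, 35.6 and 35.1 TPM in WT. It was high in A10KO replicate 1, one of the libraries in which the enzymes were low.

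Of the transport and efflux genes, Abca1 had the largest positive log2 change of the 30 tested members and Mylip, after Tm7sf2, the most negative. Abca1, which pumps cholesterol out of the cell (chromosome 4, 53030787 to 53159895), had 3.48, 12.7 and 1.90 TPM in A10KO, against 1.23, 3.05 and 1.29 TPM in WT. A10KO replicate 13 was at 6.86 times the WT mean, A10KO replicate 1 at 1.87 times and A10KO replicate 14 at 1.02 times. The order of the A10KO libraries was the reverse of that of the enzyme sum. The log2 change was 1.04 (SE 0.56, limma unadjusted p = 0.104, adjusted p = 0.648), and the groups overlapped. It was 0.39 without A10KO replicate 13 and 1.52 without A10KO replicate 14.

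Mylip encodes the ubiquitin ligase that sends lipoprotein receptors for breakdown (chromosome 13, 45389742 to 45412022). It had 1.72, 1.48 and 2.72 TPM in A10KO, against 4.14, 5.59 and 2.98 TPM in WT. All A10KO values were below WT, A10KO replicate 14 by less than 1 TPM (log2 change -0.81, SE 0.27, limma unadjusted p = 0.019, adjusted p = 0.473). Mylip and Abca1 are both known targets of the liver X receptors, and here they stood on opposite sides of WT in A10KO replicates 1 and 13.

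The late endosomal pair Npc1 and Npc2, which hand cholesterol out of the lysosome, averaged somewhat lower in A10KO. Npc1 had 17.7, 20.4 and 16.1 TPM in A10KO, against 20.1, 26.8 and 19.5 TPM in WT (log2 change -0.27, SE 0.18, limma adjusted p = 0.711). It was the 1 member whose lowest value was in A10KO replicate 14, where 14.8% of all tested genes had theirs. Npc2 had 52.5, 57.9 and 82.9 TPM in A10KO, against 78.7, 77.5 and 73.6 TPM in WT, and split as the enzymes did. Stard4, a soluble sterol carrier, was at 8.75 ± 0.925 TPM in A10KO and 9.05 ± 1.64 TPM in WT (log2 change -0.04, 95% interval -0.48 to 0.41).

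Neighbouring gene sets were counted for comparison, with 75 genes in 5 lists, of which 70 were tested and 0 passed the adjusted p in limma. At an unadjusted limma p under 0.05, 5 were higher and 4 lower in A10KO, against 2.56% and 6.27% of all tested genes. For 6 genes the A10KO values lay above WT with no overlap, against 5.61% of all tested genes, and for 7 they lay below, against 11.5%.

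Fatty acid synthesis and desaturation genes were low in A10KO replicate 1, as the cholesterol enzymes were, and mixed in A10KO replicate 13. The median log2 difference from WT over 17 genes was -0.32 in A10KO replicate 1, 0.09 in A10KO replicate 13 and -0.0023 in A10KO replicate 14. A10KO replicate 1 was below every WT library for 13 of the 17, against 17 of the 20 cholesterol enzymes and 47.4% of all tested genes. A10KO replicate 13 was below for 2 of the 17, against 16 of the 20 enzymes and 36.7% of all tested genes, and above for 8 of the 17, near the 38.3% of all tested genes. The difference between these lists was not tested. Me1, malic enzyme, had 42.7, 84.6 and 53.0 TPM in A10KO, against 34.6, 40.4 and 36.8 TPM in WT (log2 change 0.62, limma adjusted p = 0.525). Lpin1, a phosphatidate phosphatase, had 2.52, 4.22 and 3.33 TPM in A10KO and 4.18, 7.52 and 4.61 TPM in WT, and Acsl3, an acyl-CoA synthetase, 31.8, 64.4 and 44.5 TPM in A10KO and 57.3, 78.0 and 57.3 TPM in WT. Pnpla3, a lipid droplet protein gene named after its values were seen, ran from 0.20 to 71.6 TPM in A10KO and from 10.4 to 67.5 TPM in WT.

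Of the liver X receptors, partners and targets, 6 of 8 genes were tested, with a median log2 change of -0.12. Nr1h3 was under 1 TPM in every library and Arl4c was listed at 0 in all. Pltp, a phospholipid transfer protein gene, had 37.0, 76.0 and 51.8 TPM in A10KO, against 83.4, 105 and 81.1 TPM in WT, with no overlap (log2 change -0.75, SE 0.25, limma unadjusted p = 0.019, adjusted p = 0.475). Nr1h2, the liver X receptor beta, had 73.7, 53.8 and 69.6 TPM in A10KO and 71.4, 81.0 and 76.8 TPM in WT. Lpcat3, which remodels phospholipids, had 96.9, 95.4 and 97.7 TPM in A10KO and 84.8, 97.98 and 85.7 TPM in WT. A10KO replicate 13 was below every WT library for 5 of the 6 (Pltp, Nr1h2, Rxra, Rxrb and Smpdl3a), against 36.7% of all tested genes. It was above for 0, against 38.3%. Smpdl3a was at 11.8 TPM there, against 12.2, 12.3 and 12.7 TPM in WT. The targets Abca1 and Mylip are members and not part of this count, and in that library Abca1 was above WT and Mylip below.

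For SREBP processing and sterol-regulated degradation, 14 genes were tested and their median log2 change was 0.10. At an unadjusted limma p under 0.05, 0 were higher and 0 lower in A10KO, against 2.56% and 6.27% of all tested genes. The 3 with the smallest p were the ubiquitin ligase genes Rnf145, at 22.2, 31.3 and 25.4 TPM in A10KO and 30.2, 36.8 and 36.1 TPM in WT, Rnf139 (log2 change 0.27) and Syvn1 (log2 change 0.23).

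In the storage and intracellular transfer list, 18 of 21 genes were tested and the median log2 change was -0.11. Tspo, a mitochondrial membrane protein that binds cholesterol, had 109, 104 and 129 TPM in A10KO, against 150, 176 and 150 TPM in WT (log2 change -0.48, SE 0.13, limma unadjusted p = 0.0078, adjusted p = 0.388). Nceh1, a cholesteryl ester hydrolase gene, had 15.5, 14.02 and 12.4 TPM in A10KO, against 19.1, 24.5 and 19.8 TPM in WT (adjusted p = 0.423 in limma). Gramd1b, which moves cholesterol from the plasma membrane to the endoplasmic reticulum, stood higher, at 9.28, 13.3 and 8.27 TPM in A10KO, against 5.40, 6.53 and 5.81 TPM in WT (log2 change 0.68, limma adjusted p = 0.433). For these 3 genes all A10KO libraries, A10KO replicate 14 included, were on the same side of WT. The related genes of the list differed in direction, also without overlap. Gramd1a was lower in A10KO (log2 change -0.34, limma adjusted p = 0.551) and Gramd1c higher (0.42, limma adjusted p = 0.521). Lipa was also lower without overlap (log2 change -0.22, limma adjusted p = 0.698). In all, 4 of the 18 tested genes lay below WT without overlap, against 11.5% of all tested genes, and 2 above, against 5.61%.

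The non-sterol isoprenoid branches, tested for all 15 genes, had a median log2 change of -0.05. Rabggtb and Fnta, subunits of prenyl transferases, stood higher in A10KO. Rabggtb had 127, 118 and 101 TPM in A10KO, against 86.6, 83.0 and 93.7 TPM in WT, and Fnta had 76.6, 78.8 and 78.2 TPM in A10KO, against 68.2, 56.9 and 62.4 TPM in WT (log2 changes 0.39 and 0.32, limma adjusted p = 0.469 and 0.505). Pdss2, of ubiquinone synthesis, was at 12.9, 12.7 and 9.49 TPM in A10KO and 8.69, 8.75 and 9.06 TPM in WT.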

How the data were processed

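Per the labels' protocols, RNA of the 3 A10KO and 3 WT libraries was prepared with Trizol and then with DNase I. The submitters' processing notes name fastp, HISAT, RSEM and genome build GRCm38.p5, and their versions and strand setting were not given in the sources used here. The deposited values are TPM, as read from columns that sum to 969834 to 985045, and they are not the raw counts that the series table is named for. The 6 library tables held the values of the series table in 6 of 6 cases. Depth is unknown, so no counting interval is given.

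limma (version 3.58.1, R 4.3.3) was fitted with a trend on log2(TPM + 1) and adjusted over 12068 genes, those at 1 TPM or more in 3 libraries or more. The scripts were tested on simulated data. Coordinates came from GENCODE M21 (GRCm38), matched by identifier, and promoters from RefSeq on GRCm38.p6. Copies were other genes with at least 95% identity over 200 bases of transcript, found with blastn, and overlaps were taken from exons. The members and lists were chosen with earlier results of these data known. Every library's value was given for members with an unadjusted p under 0.05, for members whose groups do not overlap and for 8 listed genes. From each other list up to 3 genes with the smallest p were named. Values given for further genes were chosen after they were seen. Alternatives were another pseudocount, filters, scalings, array quality weights and leaving out each library.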

Additional observations from a re-analysis of the deposited data

How the results depend on the processing

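No paired analysis was run because the labels name no pairs of libraries. Under every setting run 0 members passed the adjusted p, the lowest being 0.141 without A10KO replicate 14. The count over all tested genes was 3 under quantile normalization and 25 with array quality weights, against 5, and 1 to 20 when single libraries were left out. The members' median log2 change of -0.22 ran from -0.42 to -0.14 with single libraries left out and was -0.03 with array quality weights. The count of members lower without overlap, an alternative added after seeing the data, ran from 5 to 19 with single libraries left out. The share of all tested genes that did so ran from 14.1% to 21.2%. The count higher without overlap ran from 0 to 3, against 7.41% to 13.4% of all tested genes. It was 1 under median-of-ratios scaling, against 7.96%. Single-gene values were computed under 10 of the settings, leaving aside quantile normalization and the other filters. Over these, 18 of 30 members kept their sign and 12 did not, in 32 of 300 values. The log2 change moved by over 1.5 times or turned sign for 15, 20 and 18 of 30 members when A10KO replicates 1, 13 and 14 were left out in turn, and for 6, 9 and 5 when WT replicates 1, 2 and 3 were. The sign turned for Lss (0.038), Lbr (0.0041) and Stard4 (0.0046) under median-of-ratios scaling, for Lss (0.049), Lbr (0.016) and Stard4 (0.015) with mitochondrial transcripts removed, and for Acat2 (0.10), Pmvk (0.075), Idi1 (0.023), Sqle (0.064), Lss (0.11) and Stard4 (0.086) with array quality weights. With single libraries left out, log2 changes on both sides of 0 were found, at -0.21 to 0.22 for Acat2, -0.16 to 0.13 for Pmvk, -0.0035 to 0.34 for Ggps1, -0.11 to 0.078 for Lss, -0.42 to 0.033 for Cyp51, -0.12 to 0.027 for Lbr, -0.12 to 0.20 for Hsd17b7, -0.022 to 0.21 for Scap, -0.10 to 0.18 for Insig2 and -0.12 to 0.093 for Stard4. The cause was not tested.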
